A study of Homo sapiens with 2 samples.

Results

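The genes described here are 8 members of the cholesterol pathway, found by symbol among the 57905 gene lines of the deposited tables: INSIG1, HMGCS1, MVK, IDI1, FDFT1, SQLE, LSS and MSMO1. The rule reads no measured value, but the genes were picked with earlier results of these data known. All 8 were found, and all 8 were among the 10312 genes that passed the filter on low counts. They were measured by MAC-seq, a 3′ mRNA sequencing method with a barcode for each well, in K562 cells, an established chronic myeloid leukaemia line. The cells had been exposed for 6 h to 1 of 74 treatments, most of them inhibitors of transcription or of chromatin regulators, or to the vehicle DMSO. Both of 2 plates with 96 wells carried the same layout. The treatments described most closely are Panobinostat and Quisinostat (inhibitors of histone deacetylases), Phendione (no target given in the labels), A241 and A485 (2 wells and 6 wells; A485 inhibits the acetyltransferases CBP and p300), actinomycin D (labelled ActD, a DNA intercalator), AZ5576 (a CDK9 inhibitor), and JQ1 and IBET_762 (inhibitors of BET bromodomain proteins). ActD, AZ5576, A485 and JQ1 had 6 wells each, IBET_762 had 4, the other treatments named below had 2, 1 on each plate, and DMSO had 24. All wells are of 1 cell line, and since the doses are not stated, differences between compounds are at unmatched doses.

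Cholesterol is built from acetyl-CoA through mevalonate, isoprenoid diphosphates and squalene to lanosterol, which is then trimmed to cholesterol. When sterols in the endoplasmic reticulum run low, the escort protein SCAP carries the SREBP transcription factors to the Golgi, where they are cleaved and freed to switch on nearly every enzyme of the route. INSIG1 retains SCAP and SREBP in the endoplasmic reticulum while sterols are plentiful, and is itself an SREBP target, so it closes a feedback loop. HMGCS1 condenses acetyl units to HMG-CoA, MVK phosphorylates mevalonate, and IDI1 interconverts the isoprenoid building blocks. FDFT1 joins farnesyl units to squalene, SQLE adds the epoxide, LSS closes the rings to lanosterol, and MSMO1 removes methyl groups from the sterol nucleus.

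Human counts per well ran from 173553 to 1906446 (median 761911.5), and single member genes had 1 count (MSMO1) to 391 counts (IDI1) in a well. The first plate column was shallower, with medians of 287063.5 and 255517.5 counts on plates 1 and 2, against 871562.5 and 755675 counts in the other columns. It held 4 DMSO wells per plate and 4 of the 6 wells of both A485 and JQ1. Erythroid markers summed to 22760 to 36180 CPM (counts scaled to the size of each library) in every well, while CD3E was at 0 in 186 and MS4A1 in 191 of the 192 wells. EPCAM and KRT19, markers of epithelial cells, had counts in every well. All levels below are CPM scaled with TMM factors, and levels are compared within a gene only. In DMSO, FDFT1 was at 105 to 182 CPM in the first column and 171 to 236 CPM in the other columns. LSS had DMSO medians of 72.9 CPM in the first column and 43.1 CPM in the other columns. The DMSO ranges given below span both. The duplicates are technical, and p-values reflect the spread among wells of a single experiment.

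INSIG1 is shown first with its promoter, together with those of HMGCS1 and MSMO1, because these 3 genes had the largest increases among the 8 members. The lines give the 250 bases before the RefSeq start on assembly GRCh38.p14, 5′ to 3′ on the strand of the gene, with CCAAT and its reverse complement ATTGG in capitals. They are INSIG1 at chr7:155297628-155297877 (plus strand), HMGCS1 at chr5:43313413-43313662 (minus strand, the upstream of its 2 entries) and MSMO1 at chr4:165327419-165327668 (plus strand).
INSIG1: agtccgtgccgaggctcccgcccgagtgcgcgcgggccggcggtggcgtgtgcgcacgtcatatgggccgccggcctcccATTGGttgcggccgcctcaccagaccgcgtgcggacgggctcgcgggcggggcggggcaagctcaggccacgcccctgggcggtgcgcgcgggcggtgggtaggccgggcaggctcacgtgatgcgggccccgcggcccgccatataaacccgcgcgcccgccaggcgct
HMGCS1: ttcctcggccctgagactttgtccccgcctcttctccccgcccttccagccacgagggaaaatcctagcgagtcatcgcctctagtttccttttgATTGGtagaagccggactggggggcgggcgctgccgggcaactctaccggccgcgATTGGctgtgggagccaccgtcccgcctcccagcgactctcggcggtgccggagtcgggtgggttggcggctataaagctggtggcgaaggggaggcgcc
MSMO1: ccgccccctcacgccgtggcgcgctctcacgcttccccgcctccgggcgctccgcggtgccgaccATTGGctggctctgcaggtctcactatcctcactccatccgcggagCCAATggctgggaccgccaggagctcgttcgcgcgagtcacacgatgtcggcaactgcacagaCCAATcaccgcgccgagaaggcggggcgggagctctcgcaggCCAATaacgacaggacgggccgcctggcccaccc

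The CCAAT box, the letters bound by NF-Y, was present on either strand in 7 of 9 promoter entries of the members, covering 6 of the 6 member genes in the table, against 32.0% of all 35116 entries. MSMO1 held 4 matches, HMGCS1 2 in the entry shown and INSIG1 1. The letters CACNCCAC, which resemble part of a sterol regulatory element, were on either strand in 2 of 9 entries (INSIG1 and the last-starting IDI1 entry), against 4.87% of all. A full sterol regulatory element, matched exactly over its 10 bases on either strand, was in 0 of 9 entries, against 0.0342% of all. The GC box GGGCGG was on either strand in 9 of 9 entries, against 42.6%. A match of letters is a description of these windows. The count files use another build (GRCh37), so no count was placed on these coordinates.

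Across the 74 treatments, 28 of 592 member tests were called higher (4.73%) and 56 lower (9.46%) than DMSO by edgeR's quasi-likelihood test at a Benjamini-Hochberg adjusted p under 0.05. The background over all genes and treatments was 2.55% called higher and 2.42% lower. At least 1 member was called in 40 treatments and none in 34. In 7 treatments at least 4 members were called in the same direction: Panobinostat, Quisinostat and Phendione upward, and ActD, AZ5576, A241 and A485 downward. In 26 treatments exactly 1 member was called, and in 20 of these it was IDI1, lower. Per gene, INSIG1 was called higher in 6 treatments and lower in 6, HMGCS1 in 3 and 0, MVK in 1 and 11, IDI1 in 5 and 28, FDFT1 in 6 and 2, SQLE in 3 and 3, LSS in 2 and 2, and MSMO1 in 2 and 4.

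**Figure D1:**
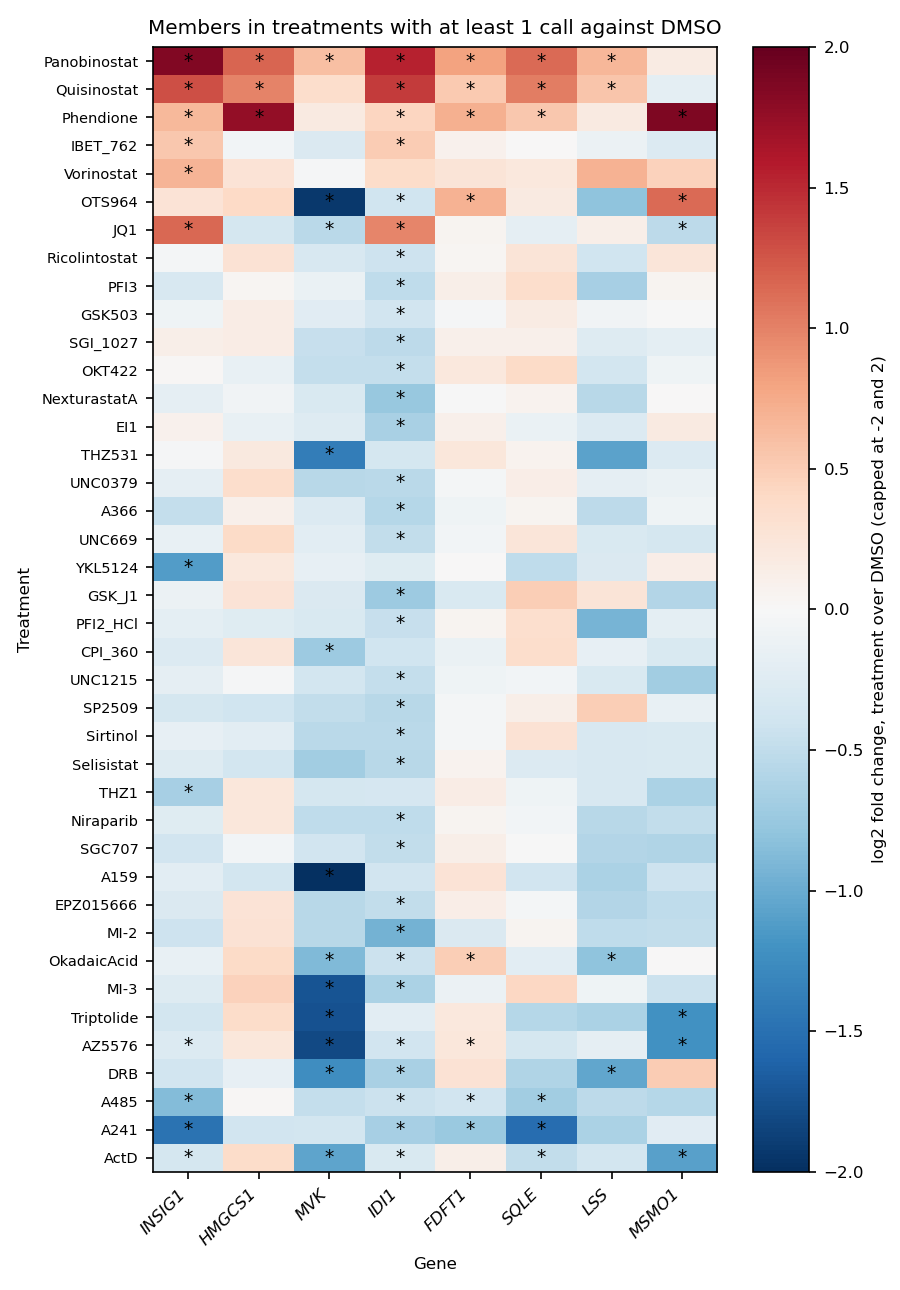
Heat map of the log2 fold change (treatment over DMSO, colour capped at 2 in both directions) of the 8 members (columns) in the 40 treatments with at least 1 call (rows); an asterisk marks an adjusted p under 0.05. Red rows at the top are Panobinostat, Quisinostat and Phendione, the bottom row is ActD, and the IDI1 column is the one with the most asterisks (33).

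The number of IDI1 calls depended on the wells used as reference. Beside DMSO, the wells of 31 compounds classed by name as acting on histone or DNA methylation were pooled as a second reference (64 wells). IDI1 was at 60.3 CPM at the lowest, 107 at the median and 157 at the highest in the class, and at 111, 140.3 and 189 CPM in DMSO. The class therefore lay lower than DMSO, with overlap. DMSO exceeded the class by 0.41 in log2 for IDI1 (SE 0.05, edgeR adjusted p = 9.04e-14), by 0.41 for MVK (SE 0.07, adjusted p = 7.81e-07) and by 0.22 for MSMO1 (SE 0.08, adjusted p = 0.0388). For SQLE the DMSO wells were lower, by -0.22 (SE 0.07, adjusted p = 0.0166). Over all genes 6.57% were called higher and 8.49% lower in DMSO. INSIG1, HMGCS1, FDFT1 and LSS were not called in this contrast. As read from the well numbers, the class wells lay in plate columns 2 to 8 and 11, and DMSO in columns 1 and 8 to 12. Only columns 8 (4 class and 2 DMSO wells) and 11 (2 and 2) held both. Pooled over all columns, the compounds, the vehicle and the position cannot be told apart, and a contrast within the shared columns was not tested.

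Against the class, IDI1 was called lower in 0 of the other 43 treatments (14 of the same treatments against DMSO) and higher in 6 by edgeR, where 3.63% of gene tests were called higher and 4.35% lower. At an unadjusted p under 0.05 it was lower in 1, NexturastatA. The compounds of the class hold the other 14 IDI1 decreases against DMSO. Of these, MI-2 had the lowest value, with wells at 60.3 and 92.4 CPM, both below every DMSO well (log2 fold change -0.95, SE 0.16, edgeR adjusted p = 2.72e-06; background 0.32% lower). EtOH, a second vehicle, had IDI1 at 113 and 114 CPM, within the lower part of the DMSO range (-0.37, SE 0.13, adjusted p = 0.189). A decrease of IDI1 against DMSO alone is therefore printed below with its value against the class.

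**Figure D2:**
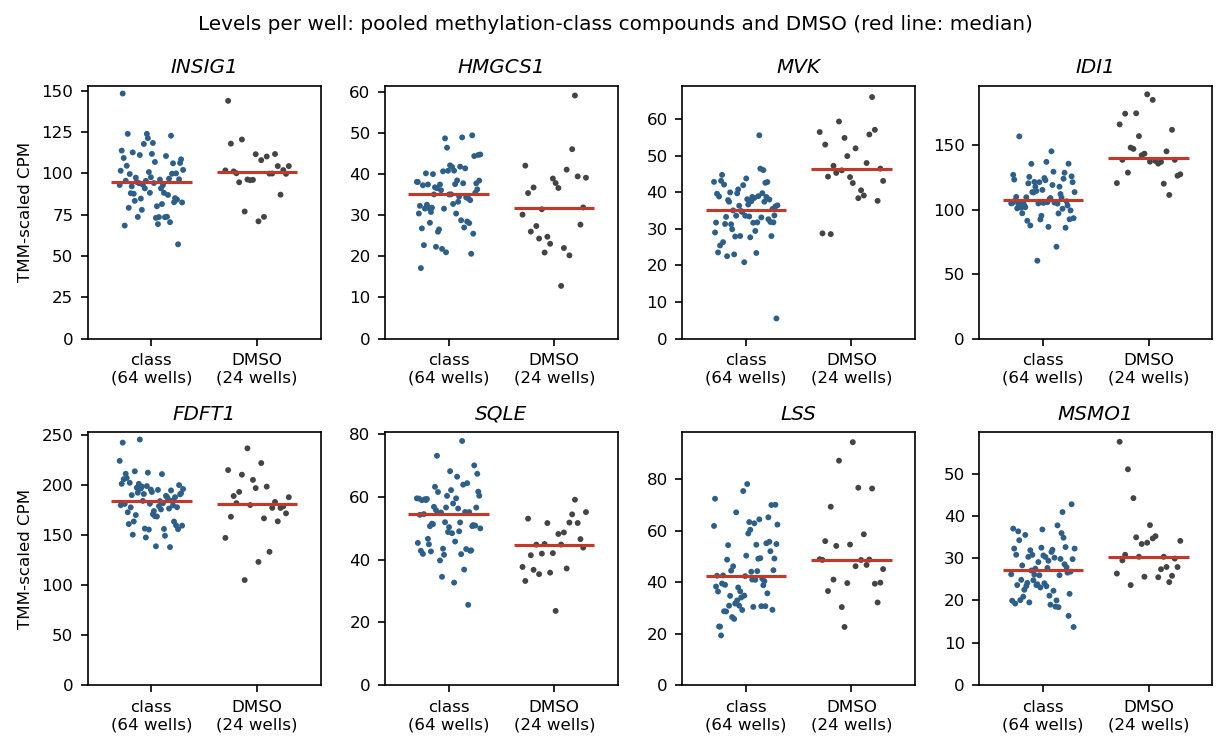
Levels of the 8 members in each well (y axis, TMM-scaled CPM) in the pooled methylation-class compounds (left, 64 wells) and in DMSO (right, 24 wells), with red lines at the medians. IDI1 and MVK lay lower in the class than in DMSO, SQLE lay higher, and FDFT1 had medians of 184 and 181 CPM.

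Panobinostat raised 7 of the 8 members, the whole route but MSMO1, against a background of 10.3% of genes called higher. The median log2 fold change of the members stood at 0.96, and that of all genes at -0.01. INSIG1, the sterol sensor, was at 364 and 378 CPM in the Panobinostat wells of plates 1 and 2, against 70.9 at the lowest, 101 at the median and 144 at the highest in DMSO. Both treated wells lay above every DMSO well, and the log2 fold change was 1.85 (SE 0.10, edgeR adjusted p = 1.44e-39). In the bulk wells, a change in RNA per cell and one in the number of cells of a kind cannot be told apart.

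Among the mevalonate enzymes, IDI1 was at 431 and 427 CPM under Panobinostat (DMSO 111 to 189), a log2 fold change of 1.55 (SE 0.10, adjusted p = 1.32e-33 by edgeR). HMGCS1 was at 63.8 and 77.0 CPM, against 12.8, 31.7 and 59.1 CPM for the lowest, median and highest DMSO well (1.16, SE 0.18, adjusted p = 2.13e-07). MVK was at 67.5 and 73.8 CPM, just above the highest DMSO well at 66.1 (0.60, SE 0.17, adjusted p = 0.00633), a call lost on either plate alone and with counts scaled to the ERCC spike-in RNAs (0.46). None of these 3 genes overlapped the DMSO wells. In the squalene steps, SQLE was at 80.7 and 120.3 CPM (DMSO 23.6 to 59.1; log2 fold change 1.12, SE 0.16, adjusted p = 1.01e-08), and FDFT1 at 337 and 305 CPM (DMSO 105 to 236; 0.80, SE 0.10, adjusted p = 4.14e-11). Both were again clear of DMSO. LSS was split, at 45.8 CPM on plate 1 and 111 CPM on plate 2, against 22.6 to 94.5 CPM in DMSO (0.67, SE 0.21, adjusted p = 0.0161), and its call was kept in 9 of 13 alternative settings, with 0.02 on plate 1 alone. MSMO1 was at 31.3 and 41.7 CPM, inside the DMSO range of 23.6 to 57.5 (0.16, SE 0.22, adjusted p = 0.698).

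Quisinostat raised 6 members, the same as Panobinostat except MVK (background 10.8%). INSIG1 was at 237 and 263 CPM, above every DMSO well (log2 fold change 1.29, SE 0.10, edgeR adjusted p = 1.88e-23). IDI1 was at 352 and 425 CPM (1.40, SE 0.09, adjusted p = 9.44e-31). SQLE was at 80.1 and 104 CPM (1.03, SE 0.15, adjusted p = 1.83e-08). All of these wells lay above the highest DMSO well. HMGCS1 (1.00), FDFT1 (0.52) and LSS (0.55) were also called, while MVK stood at 0.36 (SE 0.16, adjusted p = 0.118) and MSMO1 at -0.20 (SE 0.22, adjusted p = 0.578). MVK was called higher with Quisinostat against the methylation class (0.77, SE 0.16, edgeR adjusted p = 9.02e-05). The LSS call was kept in 6 of 13 alternative settings (0.19 to 0.81), and the FDFT1 call was lost on plate 1 alone. In the direct contrast of Quisinostat with Panobinostat, 0 of the 8 members and 0.0097% of all genes were called by edgeR. At an unadjusted p under 0.05 there were 2 members, INSIG1 (log2 difference -0.56, 95% interval -0.82 to -0.30, adjusted p = 0.0956) and FDFT1 (-0.28, -0.54 to -0.01). Vorinostat, another deacetylase inhibitor, raised INSIG1 (162 and 166 CPM; 0.68, SE 0.15, edgeR adjusted p = 0.0013; background 2.63%), and its other 7 members were not called. IDI1 was at 204 and 174 CPM with Vorinostat (0.36, adjusted p = 0.134), 1 well above and 1 within the DMSO range. It was called higher with Vorinostat against the methylation class (0.78, SE 0.15, edgeR adjusted p = 0.000135).

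Phendione raised 6 members with another profile, led by MSMO1 and HMGCS1 (background 4.73%). MSMO1 was at 109.6 and 125 CPM, against 23.6, 30.3 and 57.5 CPM for the lowest, median and highest DMSO well. The log2 fold change was 1.86 (SE 0.14, edgeR adjusted p = 1.18e-23), the highest of MSMO1 over the 74 treatments. HMGCS1 was at 84.9 and 128 CPM (DMSO 12.8 to 59.1), 1.76 in log2 (SE 0.15, adjusted p = 3.61e-19), also its highest. Both genes were clear of every DMSO well. FDFT1 was at 305 and 299 CPM (0.71, SE 0.10, adjusted p = 3.51e-09). INSIG1 was at 127 and 196 CPM, 1 well within and 1 above the DMSO range (0.65, SE 0.12, adjusted p = 7.96e-06). IDI1 was at 187 and 210 CPM, again 1 well within (0.43, SE 0.11, adjusted p = 0.0038). SQLE was at 61.3 and 69.4 CPM (0.53, SE 0.17, adjusted p = 0.0466), a call kept in 1 of 13 alternative settings. MVK (0.18) and LSS (0.18) were not called. MVK was called higher with Phendione against the methylation class (0.58, SE 0.17, edgeR adjusted p = 0.0241). On plate 1 alone 3 members were called, and on plate 2 alone 4. With ERCC scaling, which moved the median of all genes by -0.34, only HMGCS1 (1.40, edgeR adjusted p = 1.14e-08) and MSMO1 (1.52, adjusted p = 5.68e-11) were called (background 1.39% higher).

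**Figure D3:**
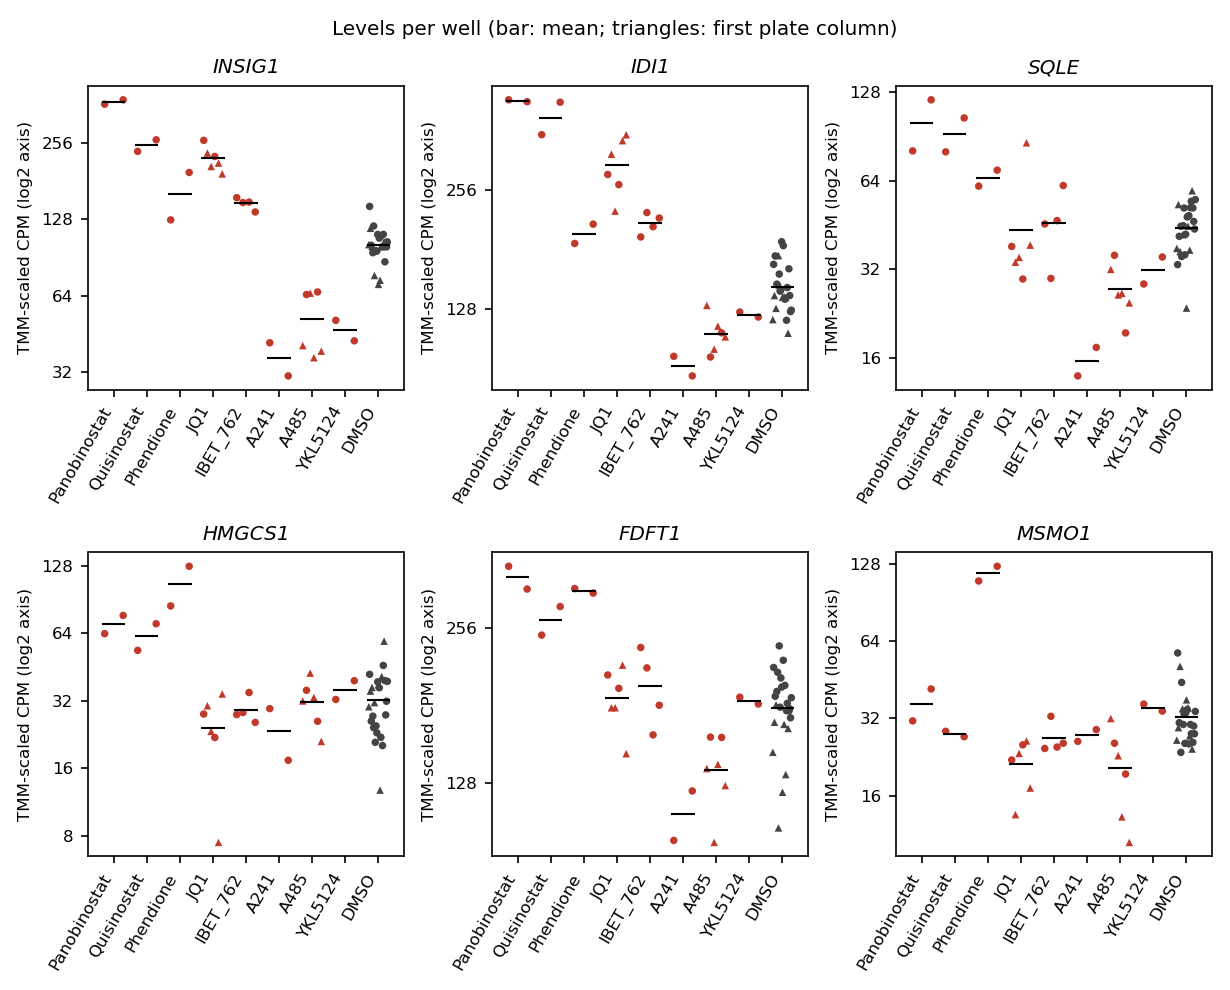
Levels of 6 members in each well (y axis, TMM-scaled CPM on a log2 scale) for 8 treatments (red) and DMSO (grey, rightmost); bars are means, triangles are wells of the first plate column. INSIG1 was highest in Panobinostat and lowest in A241, and MSMO1 lay above every DMSO well in both Phendione wells.

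The other cholesterol synthesis genes moved in part with the members. Of 12 tested, Panobinostat raised 4 and lowered 0 (median log2 fold change 0.21, all genes -0.01). They were TM7SF2, a sterol reductase (111 CPM on average against 20.1 in DMSO; 2.48, SE 0.16, edgeR adjusted p = 1.78e-28), NSDHL, which works in the same demethylation as MSMO1 (0.69, SE 0.19), EBP, a sterol isomerase (0.47, SE 0.09), and MVD, which decarboxylates mevalonate diphosphate (0.39, SE 0.11). Quisinostat raised 3, again TM7SF2 (2.175), EBP (0.49) and MVD (0.34), and lowered ACAT2 (-0.29, SE 0.11). Phendione raised DHCR7, the last reductase of the route, which averaged 162 CPM against 85.9 in DMSO (0.90, SE 0.12, edgeR adjusted p = 4.51e-10), and MVD (0.42, SE 0.11). TM7SF2 was not called with Phendione.

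Some regulators were called as well. SREBF1, which encodes SREBP1, was higher with Panobinostat (1.23, SE 0.17, edgeR adjusted p = 8.8e-09) and Quisinostat (1.13, SE 0.16) and lower with Phendione (-0.94, SE 0.29, adjusted p = 0.0137). SREBF2 was not called with Panobinostat (-0.13, edgeR adjusted p = 0.813), Quisinostat (-0.20, adjusted p = 0.664) or Phendione (-0.22, adjusted p = 0.723). Of 7 tested genes of the SREBP machinery, 1 was higher with Panobinostat, 1 with Quisinostat and 0 with Phendione (backgrounds 10.3%, 10.8% and 4.73%). Called lower were 0, 1 and 1 of them, where 844, 962 and 279 of all 10312 genes were called lower. MYLIP, a ubiquitin ligase induced by sterols, was higher with Panobinostat (2.07, SE 0.25) and Quisinostat (1.79, SE 0.24), and stood at 0.82 with Phendione (SE 0.32, adjusted p = 0.129). NR1H2, the oxysterol receptor LXR beta, was lower with Panobinostat (-1.07, SE 0.37) and Quisinostat (-1.15, SE 0.34), and stood at -0.62 with Phendione (SE 0.31, adjusted p = 0.183). Direct contrasts of these genes between the treatments were not run. Of the 7 tested fatty acid genes edgeR called 0 with Panobinostat and 0 with Phendione (0 and 2 at an unadjusted p under 0.05), and 1 with Quisinostat (ACLY, 0.45).

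**Figure D4:**
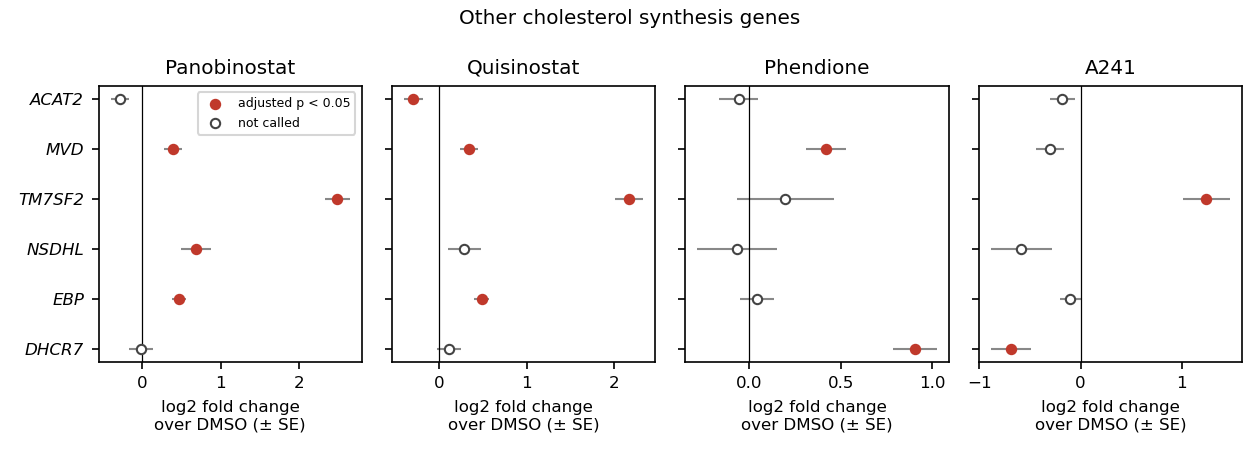
Log2 fold change over DMSO (x axis, with SE) of 6 other cholesterol synthesis genes named in the text (y axis) in Panobinostat, Quisinostat, Phendione and A241; filled red points had an adjusted p under 0.05. TM7SF2 stands at 2.48 and 2.175 with the 2 deacetylase inhibitors, and DHCR7 at 0.90 with Phendione and -0.69 with A241.

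The BET inhibitors moved INSIG1 and IDI1. JQ1 held INSIG1 at 193 CPM at the lowest, 219.7 at the median and 262 at the highest of 6 wells, all above the DMSO range of 70.9 to 144 (log2 fold change 1.15, SE 0.08, edgeR adjusted p = 5.46e-27; background 7% higher). IDI1 was at 226 CPM at the lowest and 352 at the highest, against 111 to 189 in DMSO (0.98, SE 0.08, adjusted p = 4.76e-24). MVK (-0.54, SE 0.17, adjusted p = 0.0126) and MSMO1 (-0.52, SE 0.20, adjusted p = 0.0497) were called lower (background 7.41%), and neither was called against the methylation class. The members called lower with JQ1 against that class were HMGCS1 (-0.52, SE 0.20, edgeR adjusted p = 0.0296) and SQLE (-0.40, SE 0.16, adjusted p = 0.0475). The MSMO1 call was kept in 4 of 12 alternative settings. IBET_762 also had INSIG1 and IDI1 higher (background 2.78%), with INSIG1 at 137 to 156 CPM, overlapping DMSO (0.54, SE 0.09, adjusted p = 2.45e-06) and IDI1 at 195 to 224 CPM, above it (0.51, SE 0.08, adjusted p = 4.18e-07). The IBET_762 minus JQ1 difference, not tested because the pair was added after its values were seen, was -0.62 in log2 for INSIG1 (95% interval -0.83 to -0.41) and -0.47 for IDI1 (-0.66 to -0.27). dBET1, a degrader built on the JQ1 scaffold, had 0 members called by edgeR or limma-voom (background 0.281% higher and 0.272% lower), and 1 at an unadjusted p under 0.05 (INSIG1 at 127 and 126 CPM, 0.31, SE 0.11, adjusted p = 0.138). Against the methylation class INSIG1 was called higher with dBET1 (0.42, SE 0.12, edgeR adjusted p = 0.0458). In the direct contrast of dBET1 with JQ1, INSIG1 (-0.84, SE 0.13, edgeR adjusted p = 8.37e-08) and IDI1 (-1.004, SE 0.12, adjusted p = 2.17e-11) were lower with dBET1, where 5.95% of genes were called.

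Set against JQ1 directly, the deacetylase inhibitors differed in the enzymes. Panobinostat exceeded JQ1 in 6 members (9.46% of genes called), with HMGCS1 by 1.52 (SE 0.25, edgeR adjusted p = 4.63e-07), SQLE by 1.31 (SE 0.21), MVK by 1.139 (SE 0.23), FDFT1 by 0.74 (SE 0.12), INSIG1 by 0.70 (SE 0.12) and IDI1 by 0.57 (SE 0.11). Quisinostat exceeded it in 5 members, INSIG1 not among them (10.8% of genes called). GSK_J4_HCl, an ester prodrug of the demethylase inhibitor GSK_J1, did not differ by a call from GSK_J1 in any of the 8 members (0.0291% of genes called), with a 95% interval of -0.21 to 0.70 for IDI1 and -0.32 to 0.57 for INSIG1. FDFT1 was the 1 member at an unadjusted p under 0.05 (0.48, 95% interval 0.11 to 0.84). Of 13 such pairs of treatments, 6 had 1 or more members called.

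A241 lowered 4 members, with INSIG1 and SQLE most reduced (background 3.22% of genes called lower). INSIG1 was at 41.7 and 30.9 CPM (24 and 16 counts), below every DMSO well (log2 fold change -1.48, SE 0.23, edgeR adjusted p = 9.25e-09). SQLE was at 13.9 and 17.4 CPM (8 and 9 counts), below the lowest DMSO well at 23.6 (-1.52, SE 0.37, adjusted p = 0.000371). Both values were the lowest of these genes over the 74 treatments. FDFT1 was at 99.1 and 124 CPM, 1 well below and 1 within the DMSO range (-0.74, SE 0.15, adjusted p = 0.000124). Neither A241 well was in the first column, and both lay below the lowest FDFT1 level of DMSO in the other columns (171 CPM). IDI1 was at 97.4 and 86.9 CPM (-0.67, SE 0.16, adjusted p = 0.00159), and against the methylation class it was not called (-0.26, adjusted p = 0.39). HMGCS1 (-0.38), MVK (-0.37), LSS (-0.63) and MSMO1 (-0.22) were below 0 and not called. On either plate alone, with 1 A241 well, INSIG1 was the 1 member called. Of the other cholesterol genes DHCR7 fell (-0.69, SE 0.20, edgeR adjusted p = 0.0146) and TM7SF2 rose (1.24, SE 0.23, adjusted p = 0.000233). Of 7 fatty acid genes 3 fell, namely FADS1 (-0.63), SCD (-0.92) and ELOVL6 (-1.27), with a list median of -0.38 (all genes -0.01).

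A485 also lowered INSIG1, SQLE, FDFT1 and IDI1 (background 2.49%). INSIG1 was at 36.5 CPM at the lowest, 52.7 at the median and 66.2 at the highest of 6 wells, all below the lowest DMSO well (-0.86, SE 0.12, edgeR adjusted p = 4.5e-09). SQLE was at 19.5 to 35.7 CPM (-0.69, SE 0.18, adjusted p = 0.00554), FDFT1 at 98.2 to 157 CPM (-0.39, SE 0.09, adjusted p = 0.00152) and IDI1 at 97.0 to 131 CPM (-0.43, SE 0.10, adjusted p = 0.00116), each overlapping DMSO. With all wells of the first column left out, 2 of the 4 calls were left, INSIG1 (-0.66) and IDI1, and against the methylation class IDI1 was at -0.01 (adjusted p = 0.955). On plate 1 alone 1 member was called, and on plate 2 alone 2. The A241 minus A485 difference, a pair chosen after its values were seen and so not tested, was -0.62 in log2 for INSIG1 (95% interval -1.13 to -0.11) and -0.83 for SQLE (-1.64 to -0.03). JQ1 exceeded A485 in INSIG1 by 2.02 (SE 0.14, edgeR adjusted p = 2.07e-32), in IDI1 by 1.41 and in FDFT1 by 0.44, where 14.3% of genes were called. DHCR7 (-0.59, SE 0.13) and TM7SF2 (0.82, SE 0.17) were called in the directions they had with A241.

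INSIG1 was the 1 member called against DMSO with the CDK7 inhibitors YKL5124 and THZ1, and it was lower. YKL5124 had it at 51.2 and 42.5 CPM, below every DMSO well (-1.12, SE 0.16, edgeR adjusted p = 8.49e-09; background 1.7%). Against the methylation class SQLE was also called lower with YKL5124 (-0.72, SE 0.21, edgeR adjusted p = 0.0146). THZ1 had INSIG1 at 75.8 and 54.4 CPM, 1 well within and 1 below (-0.66, SE 0.23, edgeR adjusted p = 0.0298; background 6.37%). The THZ1 call was kept in 6 of 12 alternative settings. Among those that lost it were the methylation class as reference and limma-voom. LDC4297, another CDK7 inhibitor, had INSIG1 at 74.2 and 83.5 CPM (-0.38, SE 0.15, adjusted p = 0.216). In direct contrasts by edgeR 0 members were called in THZ1 against YKL5124 (3.71% of genes called), THZ1 against LDC4297 (3.51%) and LDC4297 against YKL5124 (0.0097%). At an unadjusted p under 0.05 the counts were 0, 1 (MSMO1) and 1 (INSIG1). The LDC4297 minus YKL5124 difference in INSIG1 was 0.74 (95% interval 0.31 to 1.17), so the missed threshold does not show that these compounds act alike.

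ActD and AZ5576 lowered MVK and MSMO1. With ActD, MVK was at 14.8 CPM at the lowest, 22.0 at the median and 33.5 at the highest (8 to 15 counts), against 28.6, 46.3 and 66.1 CPM in DMSO (-1.06, SE 0.19, edgeR adjusted p = 6.06e-08; background 24.7% lower). The highest ActD well overlapped DMSO. AZ5576 had MVK at 8.68 to 23.1 CPM, all below DMSO (-1.81, SE 0.24, adjusted p = 3.1e-14; background 28.1%). MSMO1 was at 10.1 to 20.2 CPM with ActD (-1.09, SE 0.23, adjusted p = 2.78e-06) and at 3.30 to 21.3 CPM with AZ5576 (-1.21, SE 0.24, adjusted p = 6.74e-07), below the lowest DMSO well at 23.6 in all 12 wells. ActD also lowered INSIG1 (-0.34), IDI1 (-0.30) and SQLE (-0.49), 5 members in all. AZ5576 lowered INSIG1 (-0.27) and IDI1 (-0.38), 4 in all, and had FDFT1 higher at 0.23 (background 19.2% higher), a call kept in 3 of 13 alternative settings and reversed in 2. IDI1 was not lower with either against the methylation class (0.11 and 0.03), nor was INSIG1 called there. SQLE was called lower there with ActD (-0.71, SE 0.16, edgeR adjusted p = 4.63e-05) and AZ5576 (-0.57, SE 0.16, adjusted p = 0.000931). With AZ5576 it was not called against DMSO. On plate 1 alone 2 members were called lower with ActD and 2 with AZ5576, and on plate 2 alone 3 and 3. In the direct contrast of ActD with AZ5576 by edgeR, 0 members and 3.21% of genes were called, with 1 member (MVK) at an unadjusted p under 0.05.

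MVK was also called lower in 9 other treatments. A159 had MVK at 12.04 and 4.35 CPM (6 and 2 counts; -2.45, SE 0.50, edgeR adjusted p = 5.99e-08; background 11.7% lower), the lowest of the series. OTS964, an inhibitor of CDK11, had it at 14.7 and 9.60 CPM (-1.94, SE 0.42, adjusted p = 2.21e-06; background 8.61%). Triptolide (-1.74), MI-3 (-1.73), THZ531 (-1.38), DRB (-1.25), OkadaicAcid (-0.88), CPI_360 (-0.73) and JQ1 (-0.54) complete the 11 calls. The Triptolide value rests on 2 and 8 counts of MVK, and the MI-3 value on 9 and 2. The CPI_360 call was kept in 5 of 11 alternative settings. The JQ1 call was kept in 8 of 12, and was lost with all wells of the first column left out. MVK was not called with the CDK7 inhibitors THZ1 (-0.36, SE 0.31, edgeR adjusted p = 0.468), YKL5124 (-0.16, SE 0.18, adjusted p = 0.749) and LDC4297 (0.16, SE 0.19, adjusted p = 0.78). The lower-call backgrounds of the 7 treatments from Triptolide to JQ1 were 5.95%, 0.582%, 7.96%, 15.7%, 15.6%, 0.718% and 7.41% in that order. Against the methylation class, which could not be set against its own members MI-3 and CPI_360, MVK was lower in 6 treatments: A159, ActD, AZ5576, DRB, OTS964 and Triptolide. LSS was lower in 2 of these treatments, DRB with wells at 27.3 and 16.3 CPM (-1.04, SE 0.39, edgeR adjusted p = 0.0176) and OkadaicAcid with wells at 24.6 and 29.1 CPM (-0.81, SE 0.28, adjusted p = 0.011), against 22.6 to 94.5 CPM in DMSO. Only 1 DRB well lay below DMSO, and both calls were lost against the methylation class. FDFT1 was at 255 and 263 CPM with OkadaicAcid, above every DMSO well (0.49, SE 0.10, edgeR adjusted p = 4.43e-05; background 14.4% higher).

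MSMO1 differed between some transcription inhibitors. OTS964 had MSMO1 at 54.4 and 84.5 CPM, 1 well within and 1 above the DMSO range (1.13, SE 0.19, edgeR adjusted p = 1.17e-05; background 8.46% higher), and FDFT1 at 316 and 284 CPM, above every DMSO well (0.70, SE 0.11, adjusted p = 6.49e-07). Triptolide had MSMO1 at 15.6 and 11.7 CPM, below every DMSO well (-1.21, SE 0.45, adjusted p = 0.028), a call kept in 6 of 12 alternative settings. With ERCC scaling the OTS964 increase of MSMO1 was not called (0.37, edgeR adjusted p = 0.175), and FDFT1 stood at -0.04. DRB was split between its wells, at 63.7 and 23.3 CPM (0.50, SE 0.23, adjusted p = 0.1). Against the methylation class DRB had MSMO1 called higher (0.73, SE 0.23, edgeR adjusted p = 0.0154) and SQLE lower (-0.82, SE 0.29, adjusted p = 0.0131). In direct contrasts with AZ5576, MSMO1 was higher by 2.33 with OTS964 (SE 0.29, edgeR adjusted p = 2.42e-11; 5.18% of genes called) and by 1.71 with DRB (SE 0.32, adjusted p = 0.000624; 0.116% called), a DRB value resting on 35 and 10 counts. OTS964 also exceeded AZ5576 in INSIG1 by 0.54 and in FDFT1 by 0.47. In THZ531 against AZ5576 0 members were called by edgeR, with 1.8% of genes, and 1 (MSMO1) stood at an unadjusted p under 0.05.

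**Figure D5:**
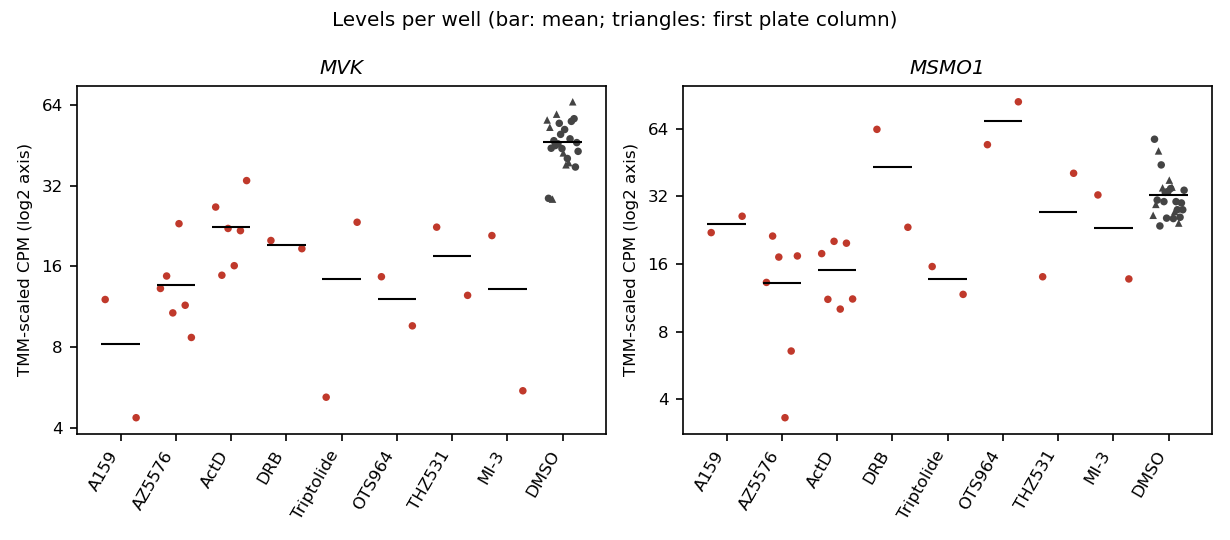
Levels of MVK and MSMO1 in each well (y axis, TMM-scaled CPM on a log2 scale) for 8 treatments (red) and DMSO (grey, rightmost); bars are means, triangles are wells of the first plate column. All 12 AZ5576 and ActD wells lay below the lowest DMSO well in MSMO1, and both OTS964 wells lay above the median of DMSO.

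Scaling to the ERCC RNAs, which does not assume that most genes hold their level, put all 8 members lower in both ActD and AZ5576, where 89.6% and 78.8% of all genes were called lower. The counts of 8 are near those shares and are not a result about the members. It moved the median of all genes by -0.92 with ActD and -0.74 with AZ5576. MVK then stood at -1.98 and -2.55, MSMO1 at -2.01 and -1.95, and INSIG1 at -1.26 and -1.01. FDFT1, higher with AZ5576 under TMM, was at -0.51 there (edgeR adjusted p = 0.000128). HMGCS1, not called under TMM in ActD (0.37) or AZ5576 (0.22), was at -0.56 and -0.54. The members most below the all-gene shift of each treatment were MVK and MSMO1 in both, and the least lowered were FDFT1 and HMGCS1. With Panobinostat 5 members kept their calls under ERCC scaling, INSIG1 at 1.73 among them (background 4.88% higher).

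Under ActD and AZ5576 the machinery that controls the pathway was lower as well. Of 7 tested genes of the SREBP machinery, 5 were lower with ActD (median -1.33, all genes -0.11) and 4 with AZ5576 (median -0.58, all genes -0.14), with 0 higher. INSIG2, the second retention protein, averaged 1.73 CPM with ActD against 10.2 in DMSO (-2.45, SE 0.65), and RNF139, a ligase of the endoplasmic reticulum, 2.02 against 12.8 CPM (-2.58, SE 0.66).

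Over the 75 treatment means, the pair INSIG1 and IDI1 had the highest Pearson correlation of the 28 member pairs (0.78), followed by INSIG1 and SQLE (0.66), and MVK and FDFT1 the lowest (-0.04). These means share plates and scaling, so the values are descriptions. Of 3853 genes outside the members, those whose means most resembled the mean of the members were HSPA5, an endoplasmic reticulum chaperone (0.74), NEU1, a lysosomal sialidase (0.73), HSPA1A, a heat shock protein (0.71), POR, the reductase that feeds electrons to SQLE (0.69), GLUL (0.69), ELOF1 (0.69), LMNA (0.68), NUCB1 (0.68), JPT1 (0.67) and MSRB1 (0.67). Among 16 listed pathway genes that could be ranked, 0 were in the first 10 and 1, MVD (0.55), in the first 50.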

How the data were processed

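The 2 deposited tables, 1 per plate, give whole numbers per gene and well. Their unit was named expected count, or estimated count, deposited by the authors without normalization, because some summary lines hold fractions. The gene lines hold whole numbers only, so those fractions do not show that genes were counted in fractions. The 6 summary lines were left out. The tables count reads, not molecules (1.63 to 3.53 reads per unique molecular identifier). The build is GRCh37 (hg19), and cutadapt 2.1, bcl2fastq 2.17.1.14, R 4.0.2 and FastQC 0.11.6 are named, per the submitters' processing notes. Aligner, counter, annotation and strand setting were not given in the sources used here. On the opposite strand MVK, HMGCS1, IDI1, FDFT1 and LSS overlap another GENCODE gene, so reads of such partners cannot be told apart. A deposited annotation gives the compound of each well. Plate columns were read from the well numbers.

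The tests ran in edgeR 4.0.16 (R 4.3.3): filterByExpr defaults, TMM factors, 1 quasi-likelihood model of all 192 wells with an additive plate term, and Benjamini-Hochberg adjustment over 10312 genes within a comparison (threshold 0.05). The plate is the replicate block, since same-numbered wells are the technical duplicates of 1 layout. limma 3.58.1 (voom) and DESeq2 1.42.0 (the 7 treatments described in full) served as alternatives, with other scalings, filters, references and left-out wells. The scripts were tested on simulated data. The members, the lists and the compound classes were chosen with earlier results of these data known. Named genes are the 8 members, 2 to 4 genes of each pathway list with the smallest p in a treatment, and the 10 genes most like the members. Some genes of these lists that the rule would name are not reported here. CYP51A1 and 1 to 2 genes of other lists did not pass the filter or were not matched. Promoter sequences are from RefSeq (GRCh38.p14).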

Additional observations from a re-analysis of the deposited data

Results flagged for a closer look

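Among 48 groups of 4 to 6 wells, a single well lay far from the rest of its group in 2, near the number that chance gives at 1 in 20. SQLE in JQ1 was at 86.0 CPM in well 49 of plate 2, a well of the first column, against 29.7 to 38.6 CPM in the other 5 wells. MSMO1 in IBET_762 was at 32.6 CPM in well 66 of plate 1, against 24.5 to 25.7 CPM in the other 3 wells. The SQLE value lies above the DMSO range of 23.6 to 59.1 CPM, and the MSMO1 value lies within the DMSO range of 23.6 to 57.5 CPM. Neither gene was called higher in these treatments.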

How the results depend on the processing

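Of the 84 calls of a member in a treatment, 82 kept direction and side of the threshold with DESeq2 size factors, 79 with library size alone, 52 with ERCC scaling, 60 with no filter on low counts, 81 without the first-column DMSO wells, 78 without any first-column well, 76 with limma-voom, 74 with adjustment over all genes and treatments, and 33 of 37 with DESeq2. Without the replicate block (the plate term) 77 did, with 26 calls higher and 51 lower against 28 and 56 with it. With 1 plate left out in turn, calls higher ran from 16 to 20 and calls lower stood at 12. Per treatment, calls lower then were 1 in A241, 1 to 2 in A485, 2 to 3 in ActD and 2 to 3 in AZ5576, and calls higher 3 to 4 in Phendione. A single plate leaves 1 well for most treatments, assumed to vary like the other groups.

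ERCC scaling gave 8 calls lower in ActD and 8 in AZ5576, where 89.6% and 78.8% of all genes were called lower, and 2 higher in Phendione (1.39% of all genes). It reversed FDFT1 in AZ5576 (-0.51) and OTS964 (-0.0388) and IDI1 in Ricolintostat (0.19), and library size alone reversed FDFT1 in AZ5576 (-0.10). With no filter, over more genes tested, 36 calls were lower, against 56 with it. Without first-column wells A485 had 2 calls lower. Against the methylation class, 21 calls were lower in 43 treatments (40 against DMSO), 3 of them in ActD, and IDI1 reversed in ActD (0.11), AZ5576 (0.0274), OTS964 (0.0105) and Ricolintostat (0.00523). The causes were not tested. Low counts limit MVK, SQLE, LSS and MSMO1 in 2-well treatments, where the SE reached 0.50 for MVK in A159 and 0.45 for MSMO1 in Triptolide.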
